A study of Mus musculus with 13 samples.

Results

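The miR-30 family was followed through small RNA-seq of thymic invariant natural killer T (iNKT) cells, a T cell lineage that recognises glycolipid presented by CD1d. Its members were chosen by name: the hairpins mmu-mir-30a, mmu-mir-30b, mmu-mir-30c-1, mmu-mir-30c-2, mmu-mir-30d and mmu-mir-30e (mmu for mouse, left out from here on), and every mature sequence named miR-30a to miR-30e. These were 17 of 2424 rows in all, with 6 of 1127 hairpins and 11 of 1297 mature sequences. Each of 6 wild type (WT) C57BL/6 mice and 7 *Tet2/3* DKO mice gave 1 library. The DKO mice were Tet2-/- Tet3flx/flx CD4 cre, so that Tet2 was missing in the whole animal and Tet3 was deleted in cells that had expressed the CD4 cre. The methods name neither floxed alleles nor cre for the WT controls. Mice of both sexes were 21 to 25 days old. Thymocytes were depleted of CD24+ cells and sorted as live TCRβ+ cells that bound αGalCer-loaded CD1d tetramer, with a stated purity above 98%.

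A miRNA is cut from a hairpin in its primary transcript by Drosha in the nucleus, and Dicer then removes the loop to leave a duplex of a 5p and a 3p arm. One arm is usually loaded into an Argonaute protein, which it guides to mRNAs that pair with its seed, bases 2 to 8 of the mature sequence. The miR-30 family is made from 3 pairs of neighbouring hairpins. Its 5p arms share a seed and are known for abundance in kidney and heart and for repression of Snai1 and Prdm1, the latter a transcriptional repressor in lymphocytes.

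RefSeq sequences (GRCm38.p6) matched 4 of 6 hairpins and 7 of 11 mature sequences, and mir-30b and mir-30d were not among them. The mature sequences are printed 5′ to 3′ with the seed in capitals, because arms with the same seed are grouped in what follows.
miR-30a-5p: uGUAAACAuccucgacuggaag
miR-30c-5p: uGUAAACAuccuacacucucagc
miR-30e-5p: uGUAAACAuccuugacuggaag
miR-30a-3p: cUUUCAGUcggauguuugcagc
miR-30e-3p: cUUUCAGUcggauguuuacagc
miR-30c-1-3p: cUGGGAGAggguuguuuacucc
miR-30c-2-3p: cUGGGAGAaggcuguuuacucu

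The 3 printed 5p arms shared the seed GUAAACA. The 3p arms of mir-30a and mir-30e carried UUUCAGU, and those of mir-30c-1 and mir-30c-2 carried UGGGAGA. Counted from the 5′ end, miR-30a-5p and miR-30e-5p differed by C13U alone, and their 3p arms by G18A alone. Against miR-30a-5p, miR-30c-5p had C13A, G14C, G18C, G19U and A20C and was 1 base longer. The 3p arms of the mir-30c copies differed by G9A, U12C and C22U.

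The hairpins of both mir-30c copies are shown whole, with the mature arms in capitals, because reads of the shared 5p arm cannot be assigned to either copy by sequence.
mir-30c-1: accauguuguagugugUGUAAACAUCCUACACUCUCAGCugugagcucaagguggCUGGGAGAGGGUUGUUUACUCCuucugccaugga
mir-30c-2: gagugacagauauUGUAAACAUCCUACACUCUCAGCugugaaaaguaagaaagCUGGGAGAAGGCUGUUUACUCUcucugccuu

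The longest run that the copies shared was 28 bases and held the whole 5p arm. In GRCm38 with GENCODE M21 annotation, mir-30a lay at chr1:23272269-23272339 on the plus strand outside any annotated gene, and mir-30c-2 lay at chr1:23291701-23291784 on the same strand in an exon of the lincRNA Gm27028. These neighbours were 19361 bases apart. mir-30c-1 (chr4:120769534-120769622) and mir-30e (chr4:120772606-120772697), 2983 bases apart on the minus strand, lay in introns of Nfyc, which encodes a subunit of the NF-Y transcription factor. mir-30b and mir-30d lay 3697 bases apart on the minus strand of chromosome 15.

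Hairpin counts summed to 469117 to 1110226 per library in WT and 728653 to 1910526 in DKO, and mature counts to 1110852 to 2582057 and 1837631 to 4361963. Levels are CPM, counts scaled to a common total, of the library total after trimmed mean of M-values (TMM) scaling, and fold changes are DKO over WT from edgeR's quasi-likelihood test with Benjamini-Hochberg adjustment over all 350 hairpins or 401 mature sequences tested. All 6 member hairpins and 8 of the 11 mature members passed the filter on low counts. The 6 miRNAs listed as T cell markers summed to 168031 to 252301 CPM per library. Of these 6, 2 were lower in DKO and 0 higher. The log2 fold change was -1.18 for miR-150-5p and -0.41 for miR-142a-3p. Levels of the hairpin rows are not set against each other here, since hairpins differ in length. A read spans a mature sequence whole, so that mature levels need no correction for length. They leave out reads counted on the hairpin rows.

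Of the family's hairpin rows, that of mir-30a fell in *Tet2/3* DKO iNKT cells and the other 5 did not pass the test. Thus 1 of 6 hairpins was lower and 0 were higher, where 59.7% of all tested hairpins passed, 27.1% lower and 32.6% higher. The median log2 fold change was 0.024 over the members and 0.021 over all tested hairpins. The plot of hairpin levels shows every mouse.

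**Figure D1:**
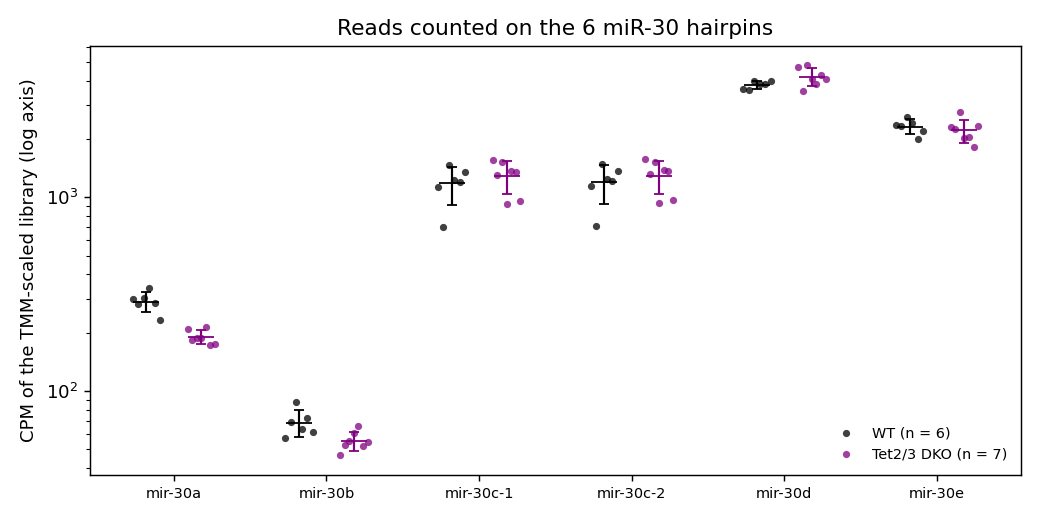
Level of each miR-30 hairpin in CPM of the TMM-scaled library (log axis) in 6 WT and 7 *Tet2/3* DKO mice. Points are mice, and bars give the mean ± SD. For mir-30a the 7 DKO mice sit between 172 and 213 CPM, all below the WT mice at 232 to 341, and the groups overlap for the other hairpins.

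mir-30a ranged from 232 to 341 CPM in WT, with a median of 291, and from 172 to 213 CPM in DKO, with a median of 187. All 7 DKO mice lay below all 6 WT mice, where 32% of all tested hairpins had groups that did not overlap and 18% did so with DKO higher. The means were 289.7 ± 35.3 CPM (SD, n = 6) and 189.8 ± 15.8 CPM (SD, n = 7). On the log2 scale mir-30a changed by -0.61 (SE 0.120, 95% interval -0.86 to -0.36, edgeR adjusted p = 0.000283). Behind these values stood 130 to 321 counts in each WT mouse and 148 to 398 in each DKO mouse. Scaled by library size only, the fold change was -0.27 and did not pass the test, with a highest adjusted p of 0.0752 over all edgeR and DESeq2 alternatives. That scaling moved the median of all hairpins to 0.36, and mir-30a lay 0.63 below it. The longest run that mir-30a shared with mir-30e was 18 bases. Whether the mir-30a row held reads of mir-30e was not tested.

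Marker miRNAs of other cells that passed were mostly lower in DKO, the direction of mir-30a. The stroma, epithelium, red cell, myeloid and liver lists held lower members and no higher ones. Only the endothelium list held a higher one. In the stroma list 4 of 4 tested members were lower, and the list summed to 67.6 to 120 CPM in WT and 12.0 to 22.8 CPM in DKO. The epithelium list (3 of 6 lower) summed to 1269 to 1677 and 812 to 1081 CPM, and the red cell list (2 of 2 lower) to 119 to 238 and 14.1 to 68.4 CPM. In the myeloid list 1 of 1 tested member was lower, with sums of 2.30 to 92.5 CPM in WT and 0.632 to 6.57 CPM in DKO. The endothelium list (1 of 2 higher) summed to 127 to 237 CPM in WT and 196 to 335 CPM in DKO, and the kidney and heart list, of which 2 members were tested and 0 passed, to 560 to 640 and 531 to 647 CPM. No marker with a row was at 0 in every library, but the kidney and heart list had rows for only 3 of its 5 members. The part of these lists in the mir-30a difference was not tested. The liver miRNA miR-122-5p was lower in DKO (log2 fold change -3.87, edgeR adjusted p = 0.00625). It reached 883 CPM in WT 5 and 761 CPM in WT 6 against 46.9 to 86.4 CPM in the other WT mice. DKO 5 (49.3 CPM) and DKO 6 (43.5 CPM) were likewise the highest DKO mice, the others lying at 3.16 to 21.5 CPM. mir-30a stood at 283 and 232 CPM in WT 5 and WT 6 and at 281 to 341 CPM in the other WT mice, and without both libraries its log2 fold change was again -0.61. Without replicates 5 and 6 of both genotypes it was -0.67 and passed the test. The libraries then left still differed in miR-122-5p, at 46.9 to 86.4 CPM in WT and 3.16 to 21.5 CPM in DKO. These fits thus did not remove the difference in this marker, and its part in the mir-30a fall was not tested.

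Its cluster neighbour mir-30c-2 ranged from 709 to 1492 CPM in WT and from 932 to 1570 CPM in DKO, with overlapping groups. Its log2 fold change was 0.12 (SE 0.158, 95% interval -0.22 to 0.45, edgeR adjusted p = 0.550). mir-30c-1 on chromosome 4 gave 0.12 (SE 0.157, 95% interval -0.21 to 0.45, edgeR adjusted p = 0.520). The copies are not independent measurements: in each library mir-30c-2 exceeded mir-30c-1 by only 2 to 24 counts, or 0.368% to 1.84%.

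mir-30d ranged from 3562 to 3996 CPM in WT and from 3537 to 4796 CPM in DKO. Its log2 fold change was 0.14 (SE 0.0916, 95% interval -0.06 to 0.33, edgeR adjusted p = 0.204). As an unscaled share of all hairpin counts, mir-30d averaged 0.336% ± 0.0211 for WT (SD, n = 6) and 0.466% ± 0.0411 for DKO (SD, n = 7), and these groups did not overlap. On this share 36% of all tested hairpins did not overlap and 29.1% did so with DKO higher. By library size only, mir-30d lay 0.12 above the median log2 fold change of all hairpins. mir-30a overlapped on the unscaled share, with WT mice from 0.0203% and DKO mice up to 0.0227%. The test of mir-30d therefore depended on how the libraries were scaled.

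mir-30b, the neighbour of mir-30d, ranged from 57.5 to 87.7 CPM in WT and from 46.5 to 65.6 CPM in DKO on 25 to 128 counts per library. Its log2 fold change was -0.32 (SE 0.169, 95% interval -0.68 to 0.03, edgeR adjusted p = 0.109). mir-30e ranged from 1997 to 2610 CPM in WT and from 1814 to 2748 CPM in DKO. On the log2 scale it stood at -0.067 (SE 0.104, 95% interval -0.29 to 0.15, edgeR adjusted p = 0.595). mir-30f, annotated on the opposite strand of the same interval, had counts equal to those of mir-30e in all 13 libraries, so the value belongs to the pair.

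Among the mature sequences, miR-30b-3p, miR-30e-5p and miR-30e-3p were lower in DKO, and none was higher. These were 3 of 8 tested members, where 55.6% of all tested mature sequences passed, 27.4% lower and 28.2% higher. The median log2 fold change was -0.20 over the tested members and -0.0080 over all. All 8 members overlapped between genotypes, whereas 27.2% of all tested mature sequences did not.

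**Figure D2:**
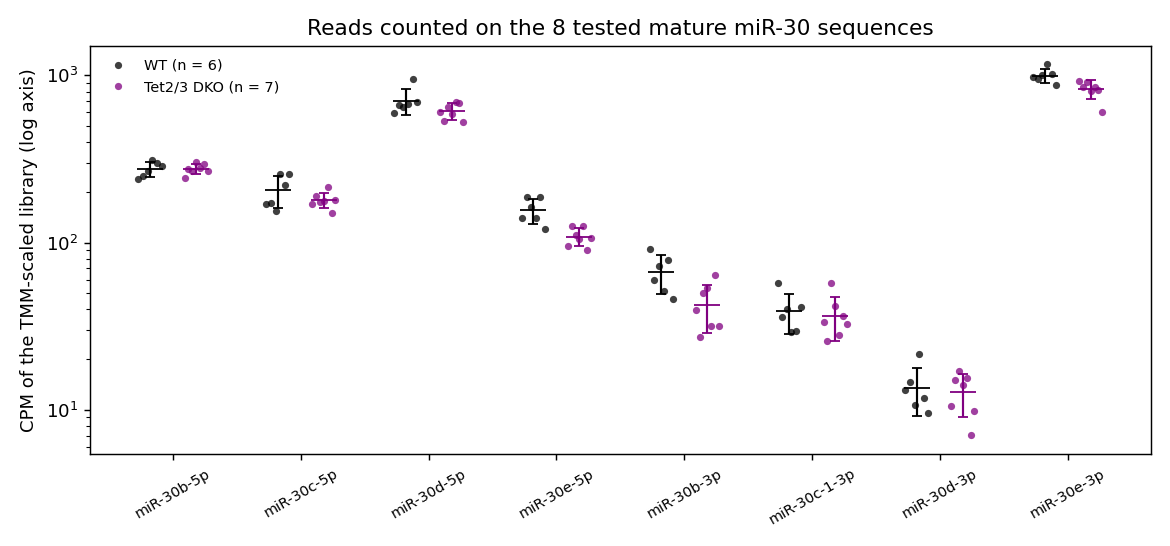
Level of the 8 tested mature miR-30 sequences in CPM of the TMM-scaled library (log axis). Points are mice, and bars give the mean ± SD. WT means run from 13.5 CPM for miR-30d-3p to 998.1 CPM for miR-30e-3p, and every sequence overlaps between the genotypes.

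miR-30e-3p had the highest mean of the family in WT, at 998.1 ± 96.6 CPM (SD, n = 6), followed by miR-30d-5p at 705.6 ± 124 CPM and miR-30b-5p at 275.5 ± 28.1 CPM. miR-30c-5p (205.6 ± 45.3 CPM) and miR-30e-5p (156.2 ± 27.3 CPM) came next. miR-30b-3p (66.5 ± 17.4 CPM), miR-30c-1-3p (38.9 ± 10.4 CPM) and miR-30d-3p (13.5 ± 4.29 CPM) closed the order. This order is one of counts on mature rows only. Hairpin rows held further reads, at 270.0 per 100 arm counts for mir-30d, 95.2 for mir-30e and 7.89 for mir-30b. Whether the order would hold with these reads was not tested. In WT mice the ranges of miR-30e-3p and miR-30d-5p overlapped, as did those of miR-30b-5p with miR-30c-5p, miR-30c-5p with miR-30e-5p, and miR-30b-3p with miR-30c-1-3p.

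miR-30e-5p, with the shared seed, ranged from 120 to 187 CPM in WT, with a median of 152, and from 90.0 to 125 CPM in DKO, with a median of 106. The groups overlapped only between 120 and 125 CPM. The log2 fold change was -0.53 (SE 0.152, 95% interval -0.84 to -0.21, edgeR adjusted p = 0.00546).

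Its partner arm miR-30e-3p, with the seed UUUCAGU, ranged from 873 to 1162 CPM in WT, with a median of 992, and from 603 to 929 CPM in DKO, with a median of 847. The log2 fold change was -0.27 (SE 0.115, 95% interval -0.51 to -0.03, edgeR adjusted p = 0.0483). This call stood close to the threshold. With the tested rows and the TMM reference library held, it passed in 3 of 12 fits that each left out 1 mouse, with log2 fold changes from -0.31 to -0.22 and edgeR adjusted p from 0.0359 to 0.129. With rows and reference chosen anew in each fit it passed in 12 of 13.

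miR-30b-3p ranged from 45.7 to 91.1 CPM in WT, with a median of 66.0, and from 27.1 to 63.9 CPM in DKO, with a median of 39.4. Its log2 fold change was -0.64 (SE 0.226, 95% interval -1.11 to -0.17, edgeR adjusted p = 0.0199). In the held fits it did not pass without WT 1 (-0.53) or without WT 5 (-0.58). The partner arm miR-30b-5p stood at 275.5 ± 28.1 CPM (SD, n = 6) and 275.6 ± 19.4 CPM (SD, n = 7). Its log2 fold change was -0.00063 (SE 0.118, 95% interval -0.24 to 0.24, edgeR adjusted p = 0.996).

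miR-30d-5p ranged from 598 to 950 CPM in WT and from 525.7 to 694 CPM in DKO. On the log2 scale it stood at -0.21 (SE 0.123, 95% interval -0.46 to 0.05, edgeR adjusted p = 0.162). For miR-30c-5p the value was -0.19 (SE 0.149, 95% interval -0.50 to 0.11, edgeR adjusted p = 0.275). miR-30c-1-3p (-0.089, SE 0.227) and miR-30d-3p (-0.087, SE 0.2997) also missed the threshold. The intervals of both minor 3p arms were wide and included falls as large as that of miR-30e-5p.

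The 3 members that did not pass the filter were miR-30a-5p, miR-30a-3p and miR-30c-2-3p. miR-30a-5p had 1 to 3 counts in a WT mouse and 0 to 5 in a DKO mouse, miR-30a-3p 1 to 20 and 0 to 11, and miR-30c-2-3p 0 to 7 and 0 to 12. No difference in these sequences could be tested at these counts. The fall of the mir-30a hairpin row thus had no counterpart that could be tested among its mature arms.

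**Figure D3:**
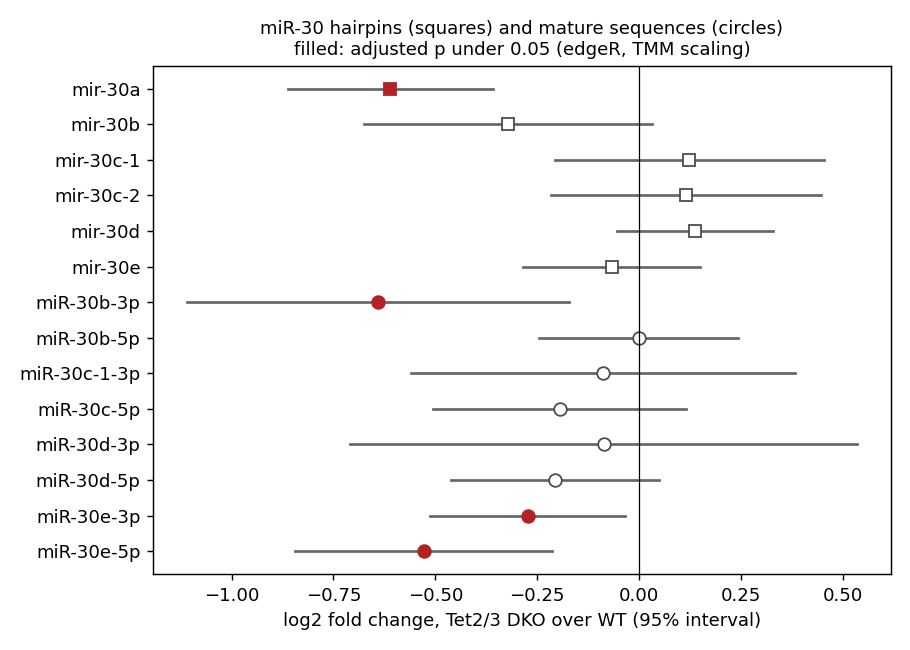
Log2 fold changes of *Tet2/3* DKO over WT for 6 miR-30 hairpins (squares) and 8 mature sequences (circles), with 95% intervals. Filled symbols passed an edgeR adjusted p of 0.05. mir-30a, miR-30b-3p, miR-30e-3p and miR-30e-5p are filled, all to the left of 0.

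mir-30a, miR-30b-3p, miR-30e-3p and miR-30e-5p were below 0 under all 4 scalings. The direction of the other members moved with the scaling, as the plot of 4 scalings shows. By library size only, 4 of 6 hairpins (mir-30c-1, mir-30c-2, mir-30d and mir-30e) were higher in DKO, none was lower, and none of the 8 mature members passed. By upper quartiles, 3 hairpins (mir-30a, mir-30b and mir-30e) and 4 mature members were lower. The median of all mature sequences moved from -0.17 by upper quartiles to 0.24 by library size only. Relative to that median, miR-30e-5p lay at -0.53 and -0.51, miR-30b-3p at -0.68 and -0.66, and miR-30e-3p at -0.28 and -0.27 under these scalings.

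**Figure D4:**
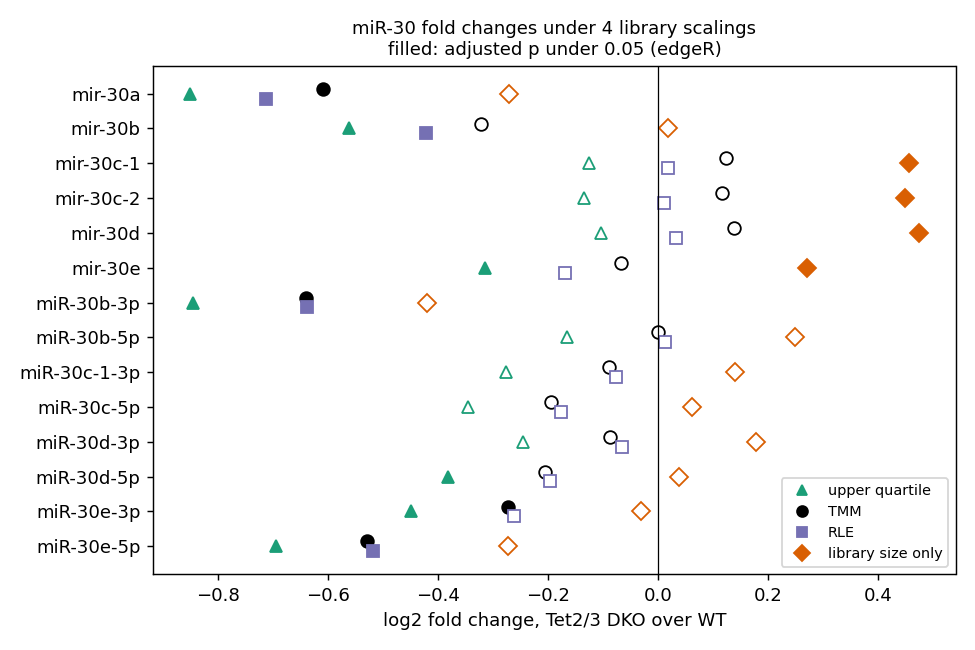
Log2 fold changes of *Tet2/3* DKO over WT for the tested miR-30 rows under 4 library scalings in edgeR. Filled symbols passed an adjusted p of 0.05. From one scaling to another the hairpin rows shift by nearly the same amount, as do the mature rows. mir-30a lies between -0.85 by upper quartiles and -0.27 by library size only.

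TMM scaling also depended on the library taken as its reference. In the mature table edgeR took DKO 7, which gave a log2 offset between the genotypes of 0.242, where the 13 possible references gave 0.238 to 0.341. miR-30e-5p and miR-30b-3p passed with all 13 references. miR-30e-3p passed with 12, missing with DKO 5, and miR-30d-5p passed with 5.

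The mature rows of the 5p arms that share the seed were summed. Reads counted on the hairpin rows were not part of this sum. This sum ranged from 1150 to 1657 CPM in WT, with a median of 1318, and from 1081 to 1311 CPM in DKO, with a median of 1176. The groups overlapped, and the difference between the mean log2 sums was -0.19 after TMM scaling and 0.057 by library size only. For WT, miR-30d-5p made up 52.3% ± 2.76 of the sum (SD, n = 6), and for DKO 51.9% ± 3.19 (SD, n = 7). miR-30b-5p took 20.6% ± 1.55 and 23.5% ± 1.68, and miR-30e-5p took 11.7% ± 2.09 and 9.22% ± 1.16.

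Ratios of members within a library do not depend on scaling, and were compared next. Within the 3 hairpin pairs that lie together in the genome, mir-30a fell against mir-30c-2 and mir-30b fell against mir-30d. The log2 ratio of mir-30a to mir-30c-2 went from -2.01 in WT to -2.75 in DKO, a difference of -0.73 (SE 0.200, 95% interval -1.16 to -0.32, exact two-sided permutation p = 0.00408, adjusted over 3 pairs 0.0122). For mir-30b to mir-30d it went from -5.79 to -6.24, a difference of -0.45 (SE 0.129, 95% interval -0.74 to -0.16, exact permutation p = 0.00816, adjusted 0.0122). For mir-30e to mir-30c-1 the difference was -0.21 (SE 0.194, 95% interval -0.62 to 0.18, exact permutation p = 0.312). Groups overlapped in all 3 ratios. The smallest p that 6 against 7 mice allow is 0.000583.

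**Figure D5:**
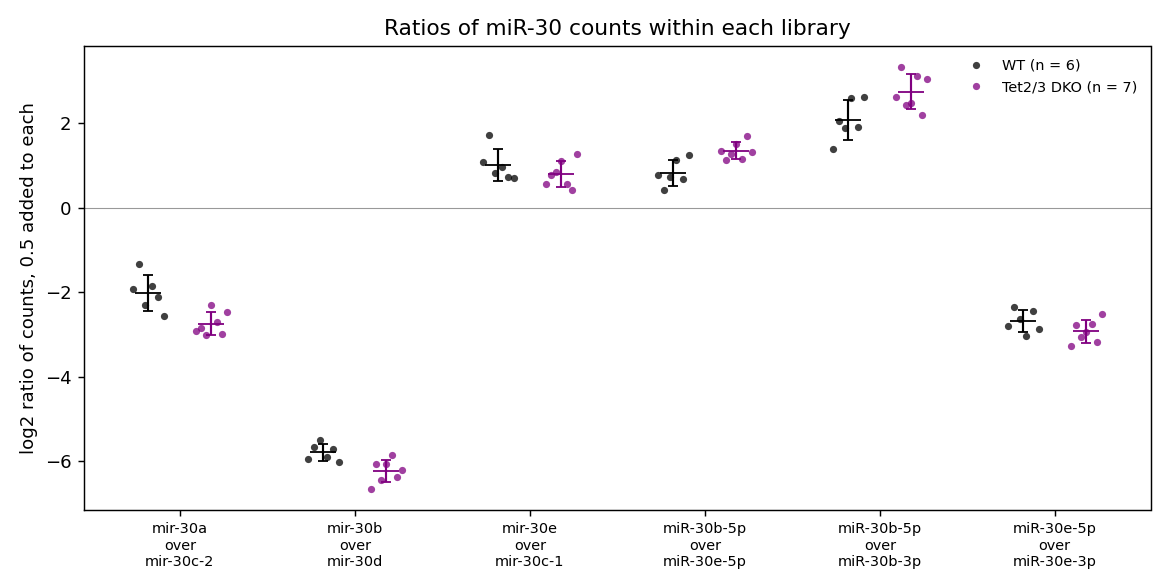
Log2 ratios of miR-30 members within each library, for neighbouring hairpins and for the 5p over the 3p arm, with 0.5 added to each count. Points are mice, and bars give the mean ± SD. The mean of mir-30a over mir-30c-2 goes from -2.01 in WT to -2.75 in *Tet2/3* DKO, and that of miR-30b-5p over miR-30b-3p from 2.08 to 2.75.

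Arm use was then compared. Arm counts are those of the mature rows, and reads on the hairpin rows were not assigned to an arm. For mir-30e the hairpin row held 35471 counts over all libraries, beside 37246 on both arms. Most arm counts of mir-30e lay on its 3p arm. That arm made up 86.5% ± 2.13 of them for WT (SD, n = 6) and 88.3% ± 1.94 for DKO (SD, n = 7). The 3p arm of mir-30b made up 19.5% ± 5.15 and 13.2% ± 3.27, and that of mir-30d 1.93% and 2.06% on average. miR-30c-1-3p made up 16.4% and 16.9% of its sum with miR-30c-5p, which both copies share.

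The log2 ratio of 5p to 3p arm was tested with limma over 119 pairs of arms, of which 25.2% passed. Of the 4 miR-30 pairs, 1 passed: for mir-30b the ratio went from 2.08 to 2.75, a difference of 0.67 (SE 0.229, 95% interval 0.21 to 1.14, limma adjusted p = 0.0304). That call was lost in 6 of 13 fits that left out 1 mouse (WT 1, WT 2, WT 3, WT 5, DKO 2 or DKO 5), where differences over all 13 ran from 0.53 to 0.78 and adjusted p from 0.0162 to 0.0863. For mir-30e the difference was -0.24 (SE 0.172, 95% interval -0.59 to 0.11, limma adjusted p = 0.330). The mir-30c and mir-30d pairs gave -0.063 and -0.089.

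Of 10 ratios between 5p arms, miR-30b-5p to miR-30e-5p passed, going from 0.83 to 1.35 on the log2 scale. The difference was 0.52 (SE 0.148, 95% interval 0.22 to 0.84, exact permutation p = 0.00350, adjusted over 10 pairs 0.0350). It passed in only 3 of 13 fits that left out 1 mouse, being lost without WT 1, WT 2, WT 3 or WT 5 and without any DKO mouse but DKO 2, with differences from 0.44 to 0.61. The 4 ratios with miR-30a-5p rested on its 0 to 5 counts per library.

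Hairpin rows and mature rows of a locus differed widely in yield. Over all libraries there were 3191 hairpin counts per 100 counts on both arms for mir-30a, which ranked 26 of 339 hairpins, against a median of 47.4. mir-30c-2 had 295.6, mir-30d 270.0, mir-30c-1 247 and mir-30e 95.2. mir-30b had only 7.89 and ranked 301. The mir-30c values are not independent, since near-equal hairpin counts are divided by arm counts that both include miR-30c-5p. That of mir-30a rests on 110 arm counts over all libraries. How reads were assigned to hairpins and to arms is not given in the sources used here.

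This ratio was compared between genotypes with limma, a test added after the values were seen, in which 16.8% of 339 hairpins passed, 10.6% higher and 6.19% lower. For mir-30d the log2 ratio of hairpin to arm counts went from 1.18 in WT to 1.54 in DKO, a difference of 0.37 (SE 0.102, limma adjusted p = 0.0172). It passed in all 13 fits that left out 1 mouse, with differences from 0.29 to 0.42 over all alternatives, but not with WT 5 and WT 6 both left out (0.32). For mir-30e the difference was 0.28 (SE 0.0907, limma adjusted p = 0.0422), and it passed in 3 of those 13 fits. The differences of mir-30c-1 (0.34), mir-30c-2 (0.34), mir-30a (0.83) and mir-30b (-0.17) did not pass.

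The mature sequences whose pattern over the 13 libraries was most like that of the summed 5p arms, by the root mean square difference of centred log2 levels among 393 candidates, were miR-23a-3p (0.130), miR-103-3p (0.157) and miR-378d (0.163). miR-23a-3p fell by 0.38 on the log2 scale (edgeR adjusted p = 0.00134). The log2 fold change was 0.016 for miR-103-3p (edgeR adjusted p = 0.892) and -0.35 for miR-378d (edgeR adjusted p = 0.00943). miR-384-5p also carries the seed GUAAACA but had no row among the mature counts.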

How the data were processed

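Small RNA was isolated from sorted thymic iNKT cells with miRNeasy and made into libraries with the NETFLEX small RNA kit. The authors ran nf-core/smrnaseq with default settings and deposited raw counts per hairpin and per mature sequence. The submitters' notes name mm10. The aligner, the miRNA database release and the treatment of reads that match several hairpins are not given in the sources used here. Groups came from the sample labels.

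From the deposited counts, edgeR 4.0.16 (R 4.3.3) was run on each whole table, with filterByExpr (minimum 10, total 15), TMM scaling, a robust quasi-likelihood fit and Benjamini-Hochberg adjustment at 0.05. Arm ratios and hairpin over arm ratios were tested with limma 3.58.1 on log2 values with 0.5 added to counts, and member ratios with exact two-sided permutation over 1716 splits of the mice. The scripts were tested on simulated data. Alternatives were RLE, upper-quartile and library-size scaling, other filters, DESeq2 1.42.0, a replicate block, and leaving out each mouse. Added after seeing the data were each TMM reference library, leaving out each mouse with tested rows and reference held, leaving out WT 5 and WT 6, and leaving out replicates 5 and 6 of both genotypes.

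The members and the marker lists were chosen with earlier results of these data known. All members are named, with the 3 most similar mature sequences. The precision of a fold change is given by its SE and interval where these are printed. It did not follow from counts alone, and counts per library are printed for only some rows.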

Additional observations from a re-analysis of the deposited data

Results flagged for a closer look

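In 48 groups of values, 5 held a mouse that stood apart from its genotype, where chance alone gives about 1 in 20. WT 2 was the lowest WT mouse for mir-30c-1, at 9.46 log2 CPM against 10.14 for the next, and for mir-30c-2, at 9.47 against 10.16, and these rows have near-equal counts. WT 2 was for that reason also the highest WT mouse in the log2 ratio of mir-30e to mir-30c-1, at 1.72 against 1.08. WT 5 was the highest WT mouse for miR-30d-5p, at 9.89 log2 CPM against 9.44. DKO 7 was the lowest DKO mouse for miR-30e-3p, at 9.24 log2 CPM against 9.66, and DKO 7 was also the TMM reference library of the mature table.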

How the results depend on the processing

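mir-30a, miR-30b-3p, miR-30e-3p and miR-30e-5p stayed below 0 in all 47 alternatives of each. Directions of the other members changed with scaling. With RLE scaling 2 member hairpins were lower and miR-30b-5p turned to 0.012. By upper quartiles 3 were lower, mir-30c-1 turned to -0.13, mir-30c-2 to -0.13 and mir-30d to -0.10, and the summed 5p difference was -0.35. By library size only, 56 hairpins of all tested, 0 member hairpins and 0 mature members were lower and 4 member hairpins higher. There mir-30b turned to 0.019, mir-30e to 0.27, miR-30b-5p to 0.25, miR-30c-1-3p to 0.14, miR-30c-5p to 0.062, miR-30d-3p to 0.18, miR-30d-5p to 0.037 and the summed 5p difference to 0.057. Testing every row with at least 1 count gave 156 lower hairpins, 0 lower mature members, mir-30e at 0.12 and miR-30b-5p at 0.089. With at least 10 counts in every library miR-30b-5p was 0.0076, and with DESeq2 it was 0.032 and 164 hairpins were lower. With 5 added to counts, the mir-30d arm difference was 0.038.

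With WT 5 and WT 6 left out, the arm differences of mir-30c and mir-30d turned to 0.11 and 0.17, and 0 pairs of 5p arms and 0 miR-30 hairpin over arm ratios passed. As TMM reference, DKO 2 turned mir-30e to 0.0062, and WT 1 and DKO 5 turned miR-30b-5p to 0.0034 and 0.0055. The replicate numbers were not taken as pairs, since same-numbered mice did not all correlate above 0.1: they ran from -0.058 to 0.346 over hairpins and from 0.015 to 0.343 over mature sequences. Number 6 correlated best with its own number in both tables and number 5 in the mature table, and both were highest for miR-122-5p in each genotype. With the replicate block, which drops DKO 7, mir-30a stood at -0.59, 1 hairpin and 3 mature members were lower, 0 pairs of 5p arms passed, miR-30c-5p to miR-30d-5p turned to -0.014, and 4 hairpin over arm ratios passed.

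Leaving out 1 mouse at a time, edgeR took another TMM reference in all 13 mature fits, so shifts in those fits mix both changes. The ranges that follow also take in the fits with tested rows and reference held, where these were run. Lower mature members numbered 2 to 4 with rows and reference chosen anew and 1 to 3 with both held. Pairs of 5p arms that passed numbered 0 to 1, arm ratios 0 to 1 and hairpin over arm ratios 1 to 2. Ranges that crossed 0 were those of mir-30e (-0.14 to 0.0097), miR-30b-5p (-0.11 to 0.037), miR-30c-1-3p (-0.28 to 0.046), miR-30d-3p (-0.24 to 0.11), the arm differences of mir-30c (-0.23 to 0.082) and mir-30d (-0.25 to 0.031), and the ratios miR-30a-5p to miR-30e-5p (-0.58 to 0.12) and miR-30c-5p to miR-30d-5p (-0.041 to 0.10). Among these, miR-30b-5p stood above 0 at 0.0071 without DKO 1 and, with rows and reference held, at 0.037 without WT 4, 0.025 without WT 5, 0.0099 without WT 6, 0.028 without DKO 1 and 0.0047 without DKO 3, and miR-30d-3p at 0.018 without WT 4 and 0.0032 without DKO 6, or 0.11 and 0.019 with both held. The range of mir-30e crossed 0 only with rows and reference chosen anew, and that of miR-30c-1-3p only with both held. The summed 5p difference ran from -0.30 to -0.20 with both chosen anew and from -0.23 to -0.12 with both held. mir-30a kept its call in every such fit. The causes of these changes were not tested beyond the alternatives' own construction. Low counts limit miR-30a-5p, miR-30a-3p and miR-30c-2-3p.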
